A study of Mus musculus with 9 samples.

Results

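The 9 genes described here make up the core of the inflammasome and pyroptosis pathway: the sensors Nlrp3 and Aim2, the adaptor Pycard, the caspases Casp1 and Casp4, the pore former Gsdmd, the cytokines Il1b and Il18, and the antagonist Il1rn. They were chosen by name as components of the pathway and are 9 of the 55385 annotated genes in each library. The libraries are bulk RNA sequencing of mouse kidney, with 3 C57BL/6 animals in each of 3 groups. Sham animals received saline only, and the other groups received a single intraperitoneal injection of cisplatin at 20 mg/kg and were sampled at day 3 or at day 7. All animals share the C57BL/6 background and carry no transgene in the labels, and the sources used here do not state their age or sex. Cisplatin is a platinum drug against tumours that injures the kidney tubule, so the comparisons address how the pathway's transcripts differ between an early and a later phase of drug-induced kidney injury.

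An inflammasome is a protein platform that forms in the cytosol when a sensor meets a danger signal. The sensor recruits the adaptor ASC, the product of Pycard, which in turn clusters and activates caspase-1. Caspase-1 cuts the precursors of the cytokines IL-1β and IL-18 and cuts gasdermin D, whose freed end forms pores in the plasma membrane and leads to the lytic death called pyroptosis. Mouse Casp4 encodes the caspase of the non-canonical route, which binds bacterial lipopolysaccharide directly and also cuts gasdermin D. Much of the pathway is controlled after transcription, by cleavage and assembly, and the values below are transcript levels only. In kidney the pathway has been studied both in infiltrating leukocytes and in tubule cells.

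Values are FPKM, sequenced fragments normalised for transcript length and library size, and a difference is a log2 fold change on the log2(FPKM + 1) scale with its standard error. On that scale the change of a weakly expressed gene is understated. A gene entered the limma test if 3 or more libraries held it at 1 FPKM or above, which left 13718 genes, and it was called when its Benjamini-Hochberg adjusted p lay under 0.05. The 3 libraries of a group are listed in the order of their replicate numbers. The FPKM of a library summed to between 421810 and 509537, and read depth is unknown. The injury marker Havcr1 stood at 402.12, 141.44 and 163.26 FPKM in the day 3 libraries. Sham library 2, at 35.45, and day 7 library 2, at 58.22, lay above the other libraries of their groups, which ranged from 1.04 to 8.29. Lcn2 and Cdkn1a were instead highest in sham library 1 of the sham group. In sham, Lcn2 stood at 14.88, 2.97 and 1.17 FPKM and Cdkn1a at 12.21, 3.8 and 5.64. Within day 7, both were highest in library 2, at 10.09 and 9.11. Day 7 library 2 stands apart in leukocyte genes as well: the pan-leukocyte gene Ptprc reached 1.48 FPKM there, against 0.47 and 0.61 in the other day 7 libraries. It was the highest of its group for 8 of the 9 pathway genes, all but Il18, while 56.4% of all tested genes had their highest day 7 value there. Day 7 differences of the tested members are therefore given with and without it. In whole tissue, fewer cells of a type and less RNA per cell cannot be told apart.

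At day 3 after cisplatin, Casp4, Gsdmd, Il1b and Il1rn were called higher than in sham, and at day 7 none of the 9 was called against sham. Of the 9 genes, 6 passed the filter on low values and were tested: Pycard, Casp4, Gsdmd, Il1b, Il18 and Il1rn. Casp1, Nlrp3 and Aim2 stayed under 1 FPKM in every library. Of the 6, 4 were called higher and 0 lower at day 3, where 39.3% of all tested genes were called higher and 20.6% lower, 59.9% together. The day 3 libraries of these 4 lay above the sham libraries without overlap, as did those of 42.1% of tested genes. Casp4 passed the filter only through its 3 day 3 libraries, and Il1rn only through those and day 7 library 2. Il1b also needed a day 3 library to pass, since only sham library 3 and day 7 library 2 held it at 1 FPKM outside day 3. A difference in Casp4 and Il1rn was built into their selection, and in part that in Il1b, so the count of 4 is a description. Without sham library 2 the count was 2, Casp4 and Il1rn.

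**Figure D1:**
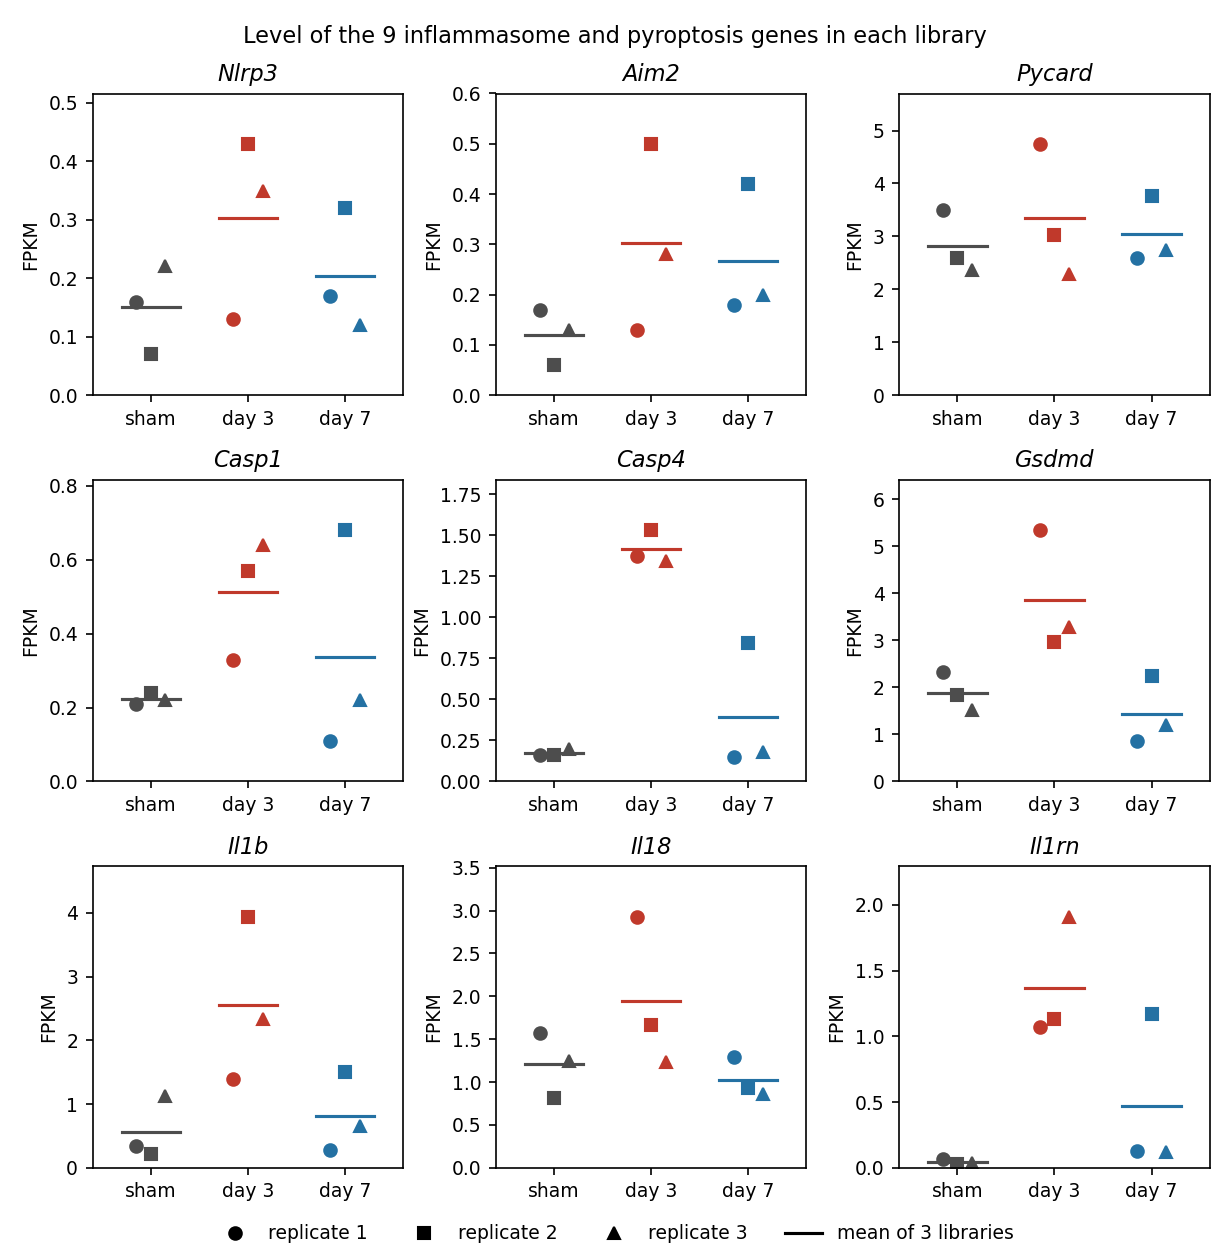
FPKM (vertical axis, linear and starting at 0, a scale for each gene) of the 9 pathway genes in the 3 sham, 3 day 3 and 3 day 7 libraries; points are libraries and horizontal lines are group means. Casp4 and Il1rn lie above 1 FPKM in every day 3 library and at or below 0.2 in every sham library, while Pycard overlaps in all groups.

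Among the called genes, Casp4 had the tightest rise at day 3. Casp4 (GRCm38 chromosome 9, 5308828 to 5336783, plus strand) stood at 0.16, 0.16 and 0.2 FPKM in sham, at 1.37, 1.53 and 1.34 at day 3 and at 0.15, 0.84 and 0.18 at day 7. All day 3 libraries lay above every sham and every day 7 library, and day 7 library 2 alone lay between. The level rose from 0.173 ± 0.0231 to 1.41 ± 0.102 FPKM at day 3 (SD, n = 3 each), a log2 fold change of 1.04 ± 0.18 with a limma adjusted p of 0.001. With a pseudocount of 0.1 in place of 1 the Casp4 rise was 2.47, and those of Il1rn and Il1b below were 3.29 and 2.14, each still called. From day 3 to day 7 it fell by 0.83 ± 0.18 on the log2 scale (limma adjusted p 0.00377), and by 1.05 without day 7 library 2. Day 7 against sham gave 0.21 ± 0.18 (limma adjusted p 0.404), and −0.01 without day 7 library 2.

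Il1rn encodes the IL-1 receptor antagonist, a secreted protein that occupies the IL-1 receptor without signalling. It was the lowest of the 9 genes in sham. Il1rn (chromosome 2, 24336853 to 24351494, plus strand) stood at 0.07, 0.03 and 0.04 FPKM in sham, at 1.07, 1.13 and 1.91 at day 3 and at 0.13, 1.17 and 0.12 at day 7. Each day 3 library exceeded every sham library, and day 7 library 2 reached the day 3 range. The day 3 rise was 1.16 ± 0.26 (limma adjusted p 0.00409), from 0.0467 ± 0.0208 to 1.37 ± 0.469 FPKM (SD, n = 3 each). The day 7 libraries also lay above the sham libraries without overlap, as did 29.5% of tested genes, but the difference of 0.42 ± 0.26 was not called (limma adjusted p 0.248), and without day 7 library 2 it was 0.10. From day 3 to day 7 Il1rn fell by 0.74 ± 0.26 (limma adjusted p 0.0355). That fall missed the threshold under 7 of 15 alternatives, with adjusted p from 0.00151 to 0.122. Among these were the fits without sham library 2 (0.0517), day 3 library 2 (0.0575) or 3 (0.116), and day 7 library 1 (0.118) or 3 (0.122), while without day 7 library 2 the fall was −1.06.

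The upstream sequences of these 2 genes are shown because Casp4 and Il1rn had the lowest adjusted p of the members at day 3. Both are the 250 bases before the first listed start in the RefSeq promoter table (GRCm38.p6, plus strand, 5′ to 3′), at chr9:5308599-5308848 for Casp4 and chr2:24336610-24336859 for Il1rn. Capitals mark matches to the NF-κB consensus in Casp4 and to the AP-1 motif TGANTCA in Il1rn, each searched on both strands.
Casp4: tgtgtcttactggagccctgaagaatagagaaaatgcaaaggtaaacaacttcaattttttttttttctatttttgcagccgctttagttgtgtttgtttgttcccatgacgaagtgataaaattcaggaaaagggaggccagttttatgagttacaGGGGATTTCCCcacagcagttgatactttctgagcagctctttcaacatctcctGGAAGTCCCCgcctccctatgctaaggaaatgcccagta
Il1rn: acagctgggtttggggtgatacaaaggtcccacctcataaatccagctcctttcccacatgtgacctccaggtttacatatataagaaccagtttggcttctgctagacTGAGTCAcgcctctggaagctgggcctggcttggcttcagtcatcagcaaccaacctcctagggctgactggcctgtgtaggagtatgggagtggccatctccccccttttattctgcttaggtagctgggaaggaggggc
NF-κB and AP-1 are transcription factors activated by inflammatory and stress signals. In Casp4 the first run of capitals holds overlapping matches that begin 93 and 92 bases before the start, and the second begins 39 bases before it. The Il1rn match begins 141 bases before the start. Over 32851 promoters of 300 bases, 250 before and 50 after the start, 8.46% held an NF-κB match and 7.81% an AP-1 match, so neither is rare. Several genes have more than 1 listed start: the Il1rn match lies at 1 of its 3 starts, and those of Casp4 at both of its 2. Counted per gene, with a match at any start, the shares of 27025 genes were 9.55% and 8.97%. Of the 8 members in the table, Nlrp3 also held an NF-κB match, at 1 of its 2 starts, Nlrp3 and Pycard held a match to the p53 motif (9.55% of all genes), and 0 held the interferon-response motif, read as GAAA, any 2 bases and GAAA (3.99%). A match describes letters in a window, and binding was not measured here.

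Gsdmd, the gene of the pore-forming effector, was the highest of the 9 at day 3. Gsdmd (chromosome 15, 75862327 to 75867408, plus strand) stood at 2.32, 1.83 and 1.52 FPKM in sham, at 5.34, 2.97 and 3.28 at day 3 and at 0.86, 2.24 and 1.19 at day 7. The day 3 libraries lay above both other groups without overlap, and day 7 overlapped sham. The day 3 rise, from 1.89 ± 0.403 to 3.86 ± 1.29 FPKM (SD, n = 3 each), was 0.73 ± 0.25 (limma adjusted p 0.0295). It was lost under 6 of 15 alternatives, among them median-of-ratios scaling (0.49, limma adjusted p 0.0745), quantile normalization (0.43, 0.101) and the fits without sham library 2 (0.0726), sham library 3 (0.0901) or day 3 library 1 (0.0917). The fall from day 3 to day 7 was firmer: −1.01 ± 0.25 with a limma adjusted p of 0.00737, called under each of the 15 alternatives (0.0031 to 0.0295). Day 7 against sham gave −0.28 ± 0.25 (limma adjusted p 0.421). Without day 7 library 2 these values were −1.24 and −0.51 (limma adjusted p 0.0031 and 0.15).

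The 2 cytokine genes differed in outcome. Il1b encodes pro-IL-1β, which is induced by inflammatory signals and is inert until cut. Il1b (chromosome 2, 129364570 to 129371139, minus strand) stood at 0.35, 0.21 and 1.13 FPKM in sham, at 1.4, 3.94 and 2.34 at day 3 and at 0.28, 1.5 and 0.65 at day 7. The day 3 libraries lay above the sham libraries, with sham library 3 close beneath day 3 library 1, and day 7 library 2 lay inside the day 3 range. The mean rose from 0.563 ± 0.496 to 2.56 ± 1.28 FPKM (SD, n = 3 each), a log2 fold change of 1.17 ± 0.34 (limma adjusted p 0.0156). The call was lost without sham library 2 (limma adjusted p 0.0578) or without day 3 library 2 (0.0556). Its fall to day 7, −0.97 ± 0.34 (limma adjusted p 0.0371), was lost under 8 of 15 alternatives, with adjusted p from 0.019 to 0.126. Among these were the fits without day 3 library 2 (0.126) or 3 (0.0769) and day 7 library 1 (0.124) or 3 (0.094). Day 7 against sham gave 0.20 ± 0.34 (limma adjusted p 0.692), and −0.06 without day 7 library 2, where the fall from day 3 was −1.23 (0.0194).

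Il18 encodes pro-IL-18, which epithelial cells make without stimulation. Il18 (chromosome 9, 50554827 to 50581840, plus strand) stood at 1.57, 0.82 and 1.25 FPKM in sham, at 2.93, 1.67 and 1.24 at day 3 and at 1.29, 0.93 and 0.86 at day 7. All 3 groups overlapped, and day 3 library 3 was no higher than sham library 3. The day 3 difference was 0.39 ± 0.22 (limma adjusted p 0.157) and day 7 against day 3 was −0.51 ± 0.22 (limma adjusted p 0.0789), neither of which was called. Without day 3 library 3 the second was called (0.0331), and without day 7 library 2 it was −0.47. Day 7 against sham was −0.12, or −0.09 without day 7 library 2. Il18 overlaps Bco2 on the opposite strand, and no source used here states whether the authors' counting used strand, so reads of the 2 genes may not have been separated. Bco2 ran from 4.46 to 6.66 FPKM in the sham libraries and from 0.65 to 0.82 in the day 3 libraries.

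The adaptor and the sensors were not called in any comparison. Pycard (chromosome 7, 127989708 to 127993867, minus strand) was the highest of the 9 in sham and at day 7. It stood at 3.49, 2.59 and 2.37 FPKM in sham, at 4.75, 3.02 and 2.28 at day 3 and at 2.59, 3.77 and 2.75 at day 7. The groups overlapped throughout, with differences from sham of 0.16 ± 0.22 at day 3 and 0.08 ± 0.22 at day 7, and −0.08 ± 0.22 between the time points (limma adjusted p 0.55, 0.812 and 0.778). The sign of each turned under median-of-ratios scaling, to −0.08, −0.02 and 0.06, so no direction is given for Pycard. Without day 7 library 2 the differences at day 7 were −0.05 from sham and −0.21 from day 3.

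Casp1, the gene of the central inflammasome protease, was low in all libraries. Casp1 (chromosome 9, 5298517 to 5307265, plus strand), which lies next to Casp4, stood at 0.21, 0.24 and 0.22 FPKM in sham, at 0.33, 0.57 and 0.64 at day 3 and at 0.11, 0.68 and 0.22 at day 7. The day 3 libraries exceeded the sham libraries without overlap, as did 28.3% of the 32394 genes with any value above 0. In a fit with no filter, the day 3 difference of 0.30 had an adjusted p of 0.181 in limma.

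Nlrp3 (chromosome 11, 59541568 to 59566956, plus strand), the sensor of ion flux and membrane damage, stood at 0.16, 0.07 and 0.22 FPKM in sham, at 0.13, 0.43 and 0.35 at day 3 and at 0.17, 0.32 and 0.12 at day 7. Aim2 (chromosome 1, 173350879 to 173466040, plus strand), the sensor of cytosolic DNA, stood at 0.17, 0.06 and 0.13 in sham, at 0.13, 0.5 and 0.28 at day 3 and at 0.18, 0.42 and 0.2 at day 7. Both overlapped between day 3 and sham, and day 3 library 1 was the lowest of its group for both. The day 7 values of Aim2 lay just above the sham values, as did 16.5% of genes with any value. Without the filter, 0 of the 3 weakly expressed genes were called by limma in any comparison and 0 had an unadjusted p under 0.05, against 31.2%, 9.48% and 29.3% of all genes called in the 3 comparisons. At these levels a difference may not have been detectable.

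Because FPKM is scaled by transcript length, levels of the 9 genes can be ordered within a group. In sham, the order of mean levels was Pycard, Gsdmd, Il18, Il1b, Casp1, Casp4, Nlrp3, Aim2 and Il1rn. Pycard lay above Gsdmd without overlap, Gsdmd overlapped Il18, and Il18 overlapped Il1b. The 5 lowest genes were at or under 0.24 FPKM in each sham library. At day 3 the order was Gsdmd, Pycard, Il1b, Il18, Casp4, Il1rn and Casp1, with Nlrp3 and Aim2 last and both at a mean of 0.303 FPKM. Each neighbouring pair overlapped except Il1rn and Casp1, between which the ranges left a gap. At day 7 it was Pycard, Gsdmd, Il18, Il1b, Il1rn, Casp4, Casp1, Aim2 and Nlrp3, and only Pycard lay apart from its neighbour. Against all tested genes, Gsdmd stood above 28.2% in sham and 40.8% at day 3, and Il1b above 5.29% and 28.6%. Pycard stood above 39.7% and 36.4%.

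**Figure D2:**
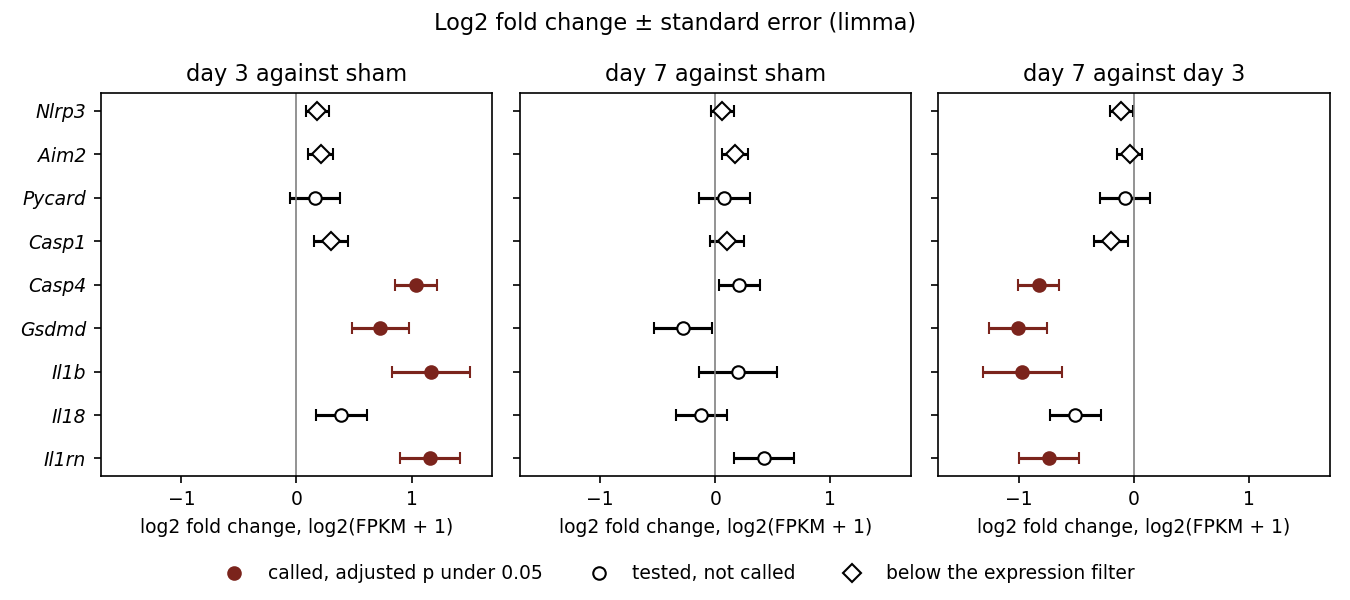
Log2 fold change on the log2(FPKM + 1) scale (horizontal axis) with its standard error for the 9 genes in 3 comparisons, each cisplatin time point with sham and the 2 time points with each other; filled points were called by limma, open points were not, and diamonds are the 3 genes below the filter. Casp4, Gsdmd, Il1b and Il1rn are filled in the first and last comparison, and no point is filled in day 7 against sham.

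At day 7 the limma test called 0 of the 6 tested genes against sham, and 0 had an unadjusted p under 0.05, while 29.7% of all tested genes were called, 19.3% higher and 10.4% lower. From day 3 to day 7, 4 of the 6 were called lower, Casp4, Gsdmd, Il1b and Il1rn, where 33.7% of all tested genes were called lower and 21.7% higher, 55.4% together. As at day 3, Casp4, Il1rn and Il1b needed day 3 libraries to pass the filter, so this count is a description as well. The count was 2 without day 3 library 2, day 7 library 1 or day 7 library 3. This comparison is also the difference between the day 3 and day 7 responses, since both share the sham libraries. The Casp4 and Gsdmd libraries of the 2 time points did not overlap, a pattern seen in 39.2% of tested genes, and those of Il1b and Il1rn overlapped through day 7 library 2. Scaling moves the reference for these counts. Of all called genes, 65.6% were higher at day 3, 64.9% at day 7 and 39.2% in day 7 against day 3. After median-of-ratios scaling the shares were 49.5%, 47.5% and 50.1%, and after quantile normalization 51.2%, 52.7% and 49.8%. Median-of-ratios scaling moved the median gene from 0.25 to 0 at day 3 and from −0.16 to −0.01 in day 7 against day 3. Under that scaling the day 3 differences of Casp4, Il1b and Il1rn were 0.90, 0.98 and 1.05, each still called (limma adjusted p 0.00144, 0.0338 and 0.00532).

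IL-1 action depends on the antagonist as well as on the cytokine, so the Il1rn to Il1b balance was computed in each library. The log2 ratio of (FPKM + 1) was −0.34, −0.23 and −1.03 in the sham libraries, −0.21, −1.21 and −0.2 in the day 3 libraries and −0.18, −0.2 and −0.56 in the day 7 libraries. Every library had less Il1rn than Il1b on this scale, and the 3 groups overlapped. The day 3 difference was −0.01 (exact permutation test, two-sided, p = 1, adjusted p = 1 over 3 comparisons), and the smallest p that 3 against 3 libraries can give is 0.1. The pseudocount sets this value. As plain FPKM ratios the sham libraries lay at 0.2, 0.143 and 0.0354 and the day 3 libraries at 0.764, 0.287 and 0.816. These do not overlap, a log2 difference of 2.49 with an exact permutation p of 0.1, which rests on sham Il1rn values of at most 0.07 FPKM. That version was added after the data were seen.

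The wider pathway was read from a list of 106 further genes, of which 67 were tested. At day 3, 40 of the 67 were called higher and 4 lower, where 39.3% of all tested genes were called higher and 20.6% lower, and the median log2 fold change was 0.91 against 0.25 over all tested genes. Of the 67, 12 needed a day 3 library to pass the filter and 11 of these were among the 40, so that part of the count was built in. Gsdma, Mlkl, Il1r2, Il36a and Il36g are among the 12, and their values below are descriptions. Under median-of-ratios scaling the split was 36 higher and 8 lower. The counts by role are small and are to be read against the same 39.3% and 20.6%. Of 9 tested caspases and adaptors 6 rose and 0 fell, and of 8 tested pore formers and membrane-rupture genes 4 rose and 0 fell. Of 8 tested sensors 4 rose and 1 fell, and of 35 triggers and regulators 22 rose and 2 fell. Of 3 tested IL-1 family cytokines 2 rose and 0 fell, and of 4 receptors and antagonists 2 rose and 1 fell.

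**Figure D3:**
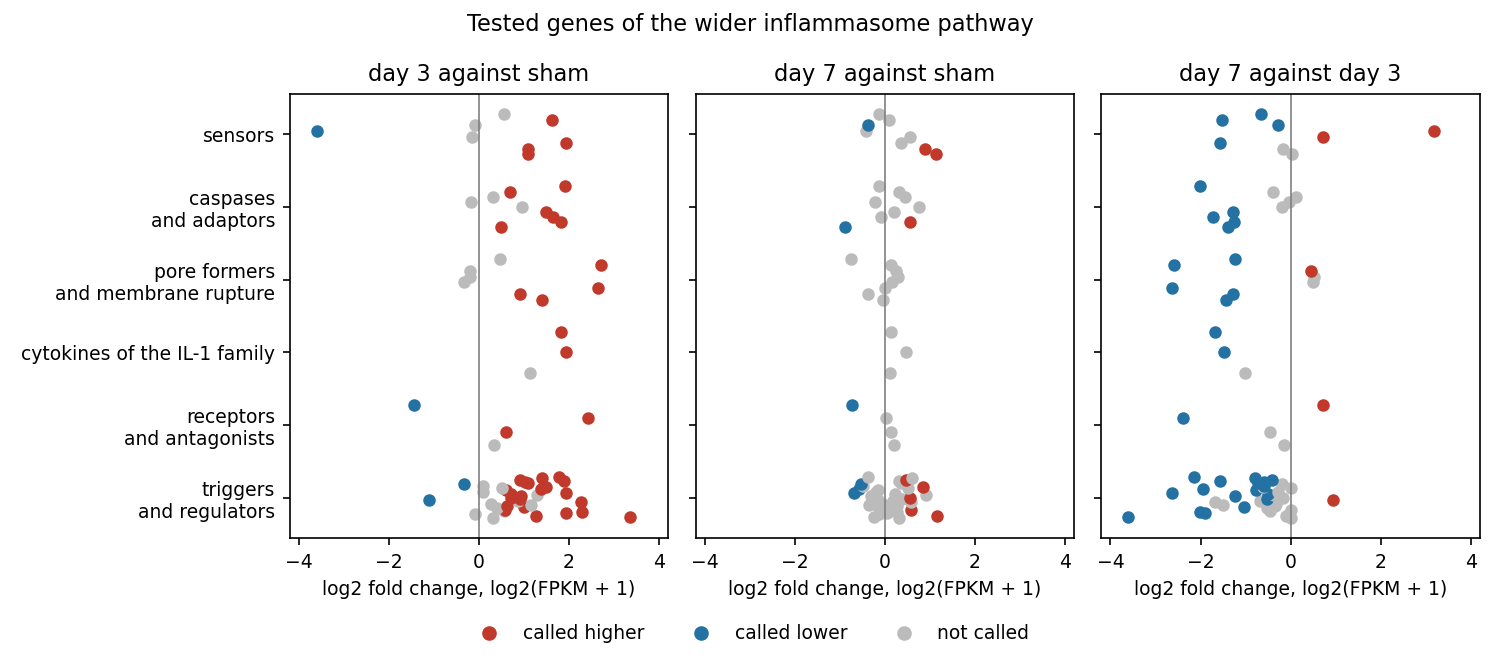
Log2 fold change on the log2(FPKM + 1) scale (horizontal axis) of the 67 tested genes of the wider pathway in 6 role groups (vertical axis) for the 3 comparisons. Each point is a gene, red where limma called it higher, blue where it was called lower and grey where it was not called. Most called points lie to the right of 0 at day 3 (40 of 44) and to the left of 0 in day 7 against day 3 (34 of 39). Of the 67, 12 needed a day 3 library to pass the filter, so part of both counts was built in.

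The sensor that moved most was not among the 9. Nlrp6, a sensor known from gut epithelium, stood at 33.53, 25.57 and 31.25 FPKM in sham, at 0.59, 2.51 and 1.98 at day 3 and at 22.44, 21.33 and 23.18 at day 7. The day 3 libraries lay far below both other groups. It fell by 3.60 ± 0.26 on the log2 scale at day 3 (limma adjusted p 1.49e-05) and was higher again at day 7 by 3.19 (limma adjusted p 3.06e-05). Day 7 against sham, −0.41, was not called (limma adjusted p 0.273), although it was without day 3 library 1 or with the 6 libraries of that contrast alone (lowest adjusted p 0.039). The summed level of 8 proximal tubule markers ranged from 29350 to 37630 FPKM over the sham libraries, from 2457 to 16710 over the day 3 libraries and from 18860 to 28920 over the day 7 libraries. Most of that sum is 1 transcript, Kap, without which the other 7 summed to between 850.6 and 1989, between 60.98 and 248.4 and between 1261 and 1600. All 8 fell at day 3. The sum of 9 intercalated cell markers ranged from 175 to 260.6, from 34.3 to 83.75 and from 188.7 to 220.3, and that of 7 principal cell markers from 222.7 to 478.8, from 70.72 to 163.8 and from 165.9 to 293. At day 3, 6 of the 9 intercalated cell markers and 5 of the 7 principal cell markers were called lower, and 0 of either higher. Over all tested genes, 20.6% were called lower and 39.3% higher at day 3. The 3 sums were lowest in the day 3 group, as Nlrp6 was, but did not all follow Nlrp6 within that group. Day 3 library 1 had the lowest Nlrp6 and the lowest proximal tubule sum of its group, yet the highest intercalated (83.75) and principal cell (163.8) sums. The part of these cell types in the fall of Nlrp6 was not tested. Nlrc4 and Nlrp1b stayed below the filter.

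Among the genes of membrane rupture, Gsdma was listed at 0 in every sham and day 7 library and stood at 3.06, 6.98 and 6.42 FPKM at day 3. Gsdma has close copies in the mouse genome, between which reads may be split, so its level is uncertain. The copies Gsdma2 and Gsdma3 were listed at 0 in every library. Mlkl, the pore former of necroptosis, rose from 0.54 ± 0.07 to 9.43 ± 3.05 FPKM (SD, n = 3 each), by 2.72 ± 0.20. Gsdme, a gasdermin cut by caspase-3, and Ninj1, which executes the final rupture of the membrane, were not called at day 3 (−0.21 ± 0.13 and 0.47 ± 0.39, limma adjusted p 0.184 and 0.327). Gsdme was called lower under median-of-ratios scaling and quantile normalization, and Ninj1 was called higher without day 3 library 2 (0.0226). Casp8, an initiator caspase shared by apoptosis and pyroptosis, rose from 11.1 ± 3.6 to 33.5 ± 12.4 FPKM (1.49 ± 0.28, limma adjusted p 0.00159).

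On the IL-1 side, the decoy receptor gene Il1r2 stood at 0.06, 0.03 and 0.09 FPKM in sham, at 1.73, 10.22 and 5.1 at day 3 and at 0, 0.21 and 0.04 at day 7. Its day 3 libraries lay above all others, a difference of 2.43 ± 0.41 from sham. The signalling receptor gene Il1r1 rose by 0.59 ± 0.18 (limma adjusted p 0.0214), a call lost under both scalings and without sham library 2, sham library 3 or day 3 library 3. Sigirr, an inhibitory member of the receptor family, fell: it stood at 19.51, 25.16 and 18.9 FPKM in sham, at 9.51, 6.73 and 5.54 at day 3 and at 12.46, 11.95 and 12.76 at day 7. The 3 groups did not overlap, and the changes from sham were −1.44 ± 0.18 at day 3 (limma adjusted p 0.000199) and −0.72 ± 0.18 at day 7 (0.0191, lost without sham library 2 or any 1 of the day 7 libraries, with −0.69 and 0.0597 without day 7 library 2). The cytokine genes Il36a and Il36g were listed at 0 in each sham library and stood at 2.02 to 3.82 and at 2.47 to 2.58 FPKM at day 3. Day 7 library 2 held Il36a at 1.7 FPKM. Sigirr, Il36a and Il36g were singled out after their values were seen. Il33 and Il18bp, the gene of the soluble IL-18 inhibitor, were not called at day 3 (1.14 ± 0.48 and 0.34 ± 0.20, limma adjusted p 0.0689 and 0.165). Il33 was called without day 3 library 1 or day 7 library 2, with the replicate block and with the 6 libraries of the contrast alone, and Il18bp without day 7 library 2 (0.0388). Il1a, Il1rap, Il1rl1 and Il18r1 stayed below the filter. Without it, limma called Il1a, Il1rap and Il18r1 higher at day 3 (adjusted p 0.0314, 0.0356 and 0.00453), not Il1rl1 (0.103), and Il1rap higher at day 7 (0.0383).

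Of the triggers, Cd14, the lipopolysaccharide co-receptor gene that is also a monocyte marker, rose from 3.12 ± 1.27 to 39.9 ± 2.28 FPKM (SD, n = 3 each), by 3.36 ± 0.32 (limma adjusted p 4.79e-05). Txnip, whose product binds thioredoxin and has been linked to NLRP3, rose from 77.4 ± 36.5 to 249 ± 36.6 (1.77 ± 0.30, limma adjusted p 0.000974). Nek7, which encodes a kinase partner of NLRP3, was not called (1.29 ± 0.68, limma adjusted p 0.132), and P2rx7, the ATP-gated channel gene, stayed below the filter.

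At day 7, 8 of the 67 were called higher than sham and 6 lower, where 19.3% and 10.4% of all tested genes were called, 29.7% together. Under median-of-ratios scaling the counts were 6 and 9. The largest calls were Dpp8 (1.16, limma adjusted p 0.00513), Dhx15 (1.13, 0.00162), Dhx9 (0.90, 0.00186), Card19 (−0.88, 0.0101) and Serpinb9 (0.85, 0.0446, lost under 9 of 15 alternatives). Without day 7 library 2 these were 1.11, 1.09, 0.87, −0.96 and 0.61. Dpp8 encodes a protease that restrains NLRP1, Dhx9 and Dhx15 encode RNA helicases, and Serpinb9 encodes a granzyme B inhibitor. From day 3 to day 7, 5 were called higher and 34 lower, where 21.7% and 33.7% of all tested genes were called, 55.4% together. The largest were Cd14 (−3.60), Nlrp6 (3.19), Nfkbia (−2.64), Gsdma, which returned to 0 in every library, and Mlkl (−2.59). The 12 genes that needed a day 3 library to pass the filter were all among the 34 called lower. That part of the count was built in, and Gsdma and Mlkl are among the 12. Without day 7 library 2, Cd14, Nlrp6, Nfkbia and Mlkl stood at −3.93, 3.22, −2.77 and −2.71. The count of 14 called against sham was 5 without sham library 2, 5 without day 7 library 1, 8 without day 7 library 2 and 8 without day 7 library 3.

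**Figure D4:**
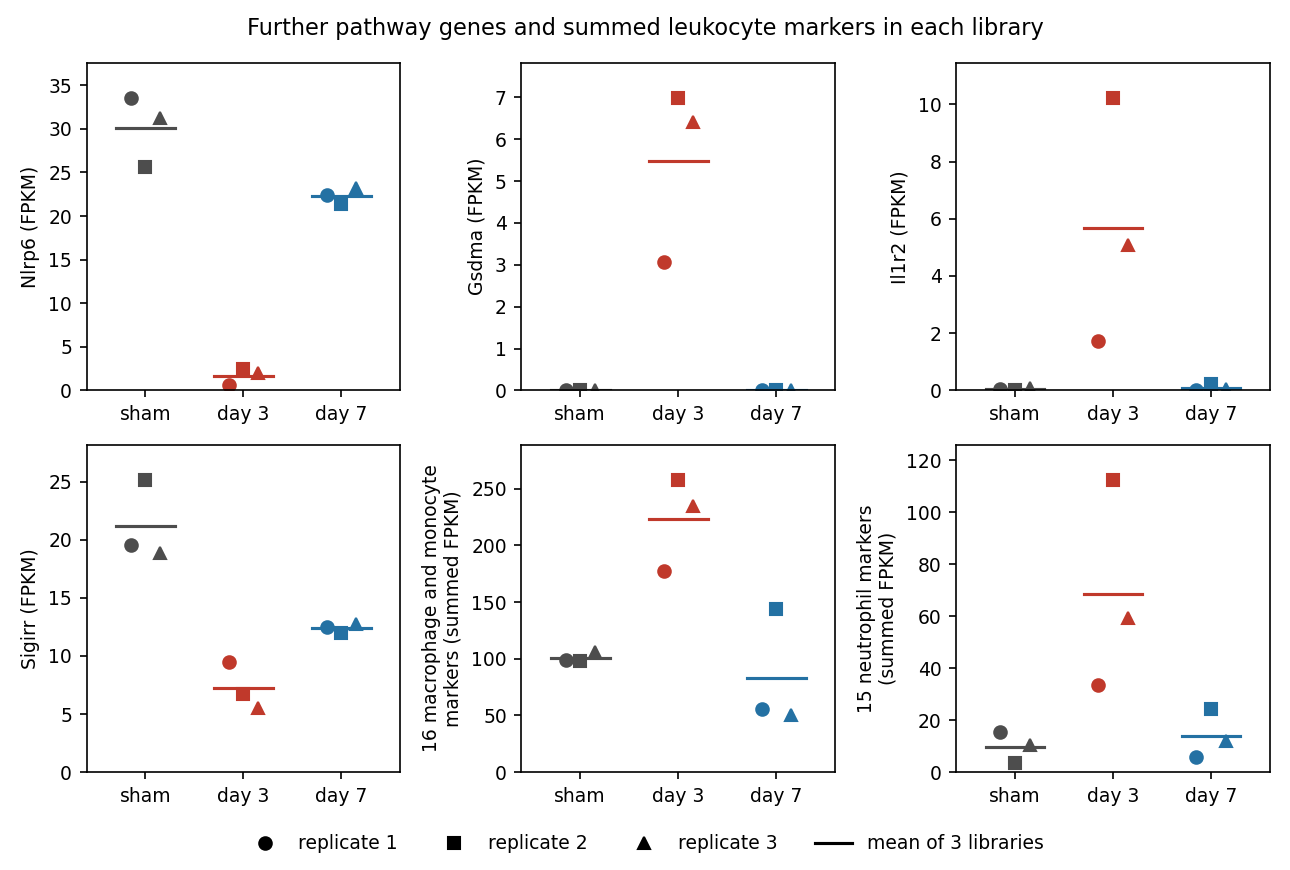
FPKM (vertical axis, linear and starting at 0) per library of Nlrp6, Gsdma, Il1r2 and Sigirr, and the summed FPKM of 16 macrophage and monocyte markers and of 15 neutrophil markers, in the 3 groups; points are libraries and horizontal lines are group means. Both marker sums are highest at day 3, that of macrophages and monocytes through Cd68 and Cd14, and day 7 library 2 lies above the other day 7 libraries in both.

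Many of the 9 genes are also expressed by leukocytes, so leukocyte markers were read in the same libraries. The summed FPKM of 15 neutrophil markers ranged from 3.67 to 15.33 over the sham libraries, from 33.71 to 112.5 over the day 3 libraries and from 5.88 to 24.2 over the day 7 libraries, and 4 of the 5 tested rose at day 3. The 4 were S100a8, S100a9, Retnlg and Mmp8, where 39.3% of all tested genes were called higher and 20.6% lower. Mmp8 passed the filter only through its day 3 libraries, and Retnlg only through those and sham library 1. Their rises were thus at least in part built into the selection. Ngp, Mpo and Elane, granule genes of immature neutrophils, were listed at 0 in every sham library, and Mpo in every day 3 library as well. In the day 3 libraries Ngp stood at 0.11, 0.81 and 0.56 FPKM and Elane at 0, 0.05 and 0. That of 16 macrophage and monocyte markers ranged from 97.84 to 106.3 in sham animals, from 177.6 to 257.9 in day 3 animals and from 50.73 to 143.6 in day 7 animals. Of the 12 tested, 3 rose at day 3, Cd68, Itgam and Cd14, and 5 fell, among them Csf1r and Cx3cr1. These counts are to be read against the same 39.3% and 20.6%. Itgam passed the filter only through its day 3 libraries, so its rise was built into the selection. Without Cd68 and Cd14 the other 14 summed to 90.07, 89.37 and 100.8 FPKM in the sham libraries, 43.28, 101.9 and 110.4 in the day 3 libraries and 51.71, 135.1 and 47.87 in the day 7 libraries, so sham and day 3 overlapped. The sums of lymphocyte and dendritic cell markers were lower at day 3. The 12 lymphocyte markers summed to between 4.26 and 5.33 in sham and between 1.02 and 1.93 at day 3, and the 8 dendritic cell markers to between 3.78 and 5.1 and between 2.05 and 3.45. Only 1 lymphocyte and 2 dendritic cell markers were tested, and 1 of each list was called lower. Cd79a and Zbtb46 went the other way, with mean FPKM from 0.237 to 1.18 and from 0.807 to 1.29. Day 3 library 2 had the highest neutrophil sum and the highest Il1b. Day 7 library 2 had the highest sums of its group in the neutrophil list and in the macrophage and monocyte list. It was also the highest of its group for dendritic cell (6.22), lymphocyte (5.11), endothelial (53.25) and intercalated cell (220.3) markers. Its proximal tubule sum, 18860, was the lowest of its group. The part of leukocyte content in the changes of Il1b, Il1rn, Casp4 and Gsdmd was not tested.

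The libraries of a group did not vary alike for all members. Day 3 library 1 was the highest of its group for Pycard, Gsdmd and Il18 and the lowest for Nlrp3, Aim2, Casp1, Il1b and Il1rn. Over all tested genes it was the highest for 48.1% and the lowest for 32.5%. It also had the lowest day 3 sums of neutrophil and of macrophage and monocyte markers.

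For each tested member, the genes with the most similar profile over the 9 libraries were found by the root mean square difference of centred log2(FPKM + 1). For Casp4 these were Apaf1 (0.116), Napb (0.116) and Taf5 (0.121). For Il1rn they were Tlr2 (0.146), Fam111a (0.154) and Mcm4 (0.168), and for Gsdmd they were Rpl39-ps (0.133), Arap1 (0.136) and Parp3 (0.141). For Il1b they were Gm6030 (0.168), Ifi209 (0.217) and Rps24-ps3 (0.218). Pycard was nearest to B3gntl1 (0.079), Rab9 (0.091) and Ccdc163 (0.091), and Il18 to Hmgb1-ps7 (0.11), Ypel2 (0.133) and Gm13092 (0.152). These distances describe 9 libraries in 3 groups. They grow with a member's own spread, whose SD over the libraries was 0.27 for Pycard and 0.68 for Il1b, so they do not rank the members.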

How the data were processed

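Bulk RNA of 9 mouse kidneys was measured in 3 groups of 3 biological repeats. Per the labels' protocols, RNA was extracted with TRIzol, had an RNA integrity number above 7.0 and went into a directional library kit sequenced on an Illumina HiSeq instrument. Values were deposited as FPKM, made by the authors, per the file headers, rounded to 2 decimals. HISAT, StringTie, FastQC 0.10.1 and GRCm38 stand in the submitters' processing notes, while no source used here states the strand setting or the annotation release. Read depth is unknown, so no counting interval or floor is given, and a value of 0 means listed at 0. Because FPKM is relative to the library, abundant transcripts that rise lower the values of others.

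Gene IDs were named from GENCODE M21, with a symbol for 55144 of 55385. limma 3.58.1 in R 4.3.3 was fitted to log2(FPKM + 1) of all 9 libraries with 3 groups, no other term and a mean-variance trend. The test was two-sided, with adjustment over the 13718 genes at 1 FPKM or more in at least 3 libraries. It was tested on simulated data. Named genes are the members, 16 pathway genes regardless of result and up to 5 called pathway genes per contrast, by size, whose mean reached 1 FPKM in a group. Sigirr, Il36a, Il36g and the markers named are outside this rule and were chosen after their values were seen. Of 109 pathway genes listed, 106 matched. Promoters are from RefSeq's table, and proteins were not used here. Alternatives were a pseudocount of 0.1, no filter, median-of-ratios scaling, quantile normalization, the 6 libraries of a contrast, the replicate number as a block and leaving out each library. The members and lists were chosen with earlier results of these data known.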

Additional observations from a re-analysis of the deposited data

Results flagged for a closer look

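The responses at day 3 and day 7, each against the same sham libraries, differed by the limma test of day 7 against day 3 in 4 of the 6 tested genes. The day 7 response was lower than the day 3 response by a log2 difference of −0.83 for Casp4, −1.01 for Gsdmd, −0.97 for Il1b and −0.74 for Il1rn. For Casp4 and Gsdmd the call held in every alternative that was run, and for Il1b and Il1rn it did not. Casp4, Il1rn and Il1b needed day 3 libraries to pass the filter, so their differences were at least in part built into their selection. Over all tested genes, 55.4% were called in the same comparison.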

How the results depend on the processing

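Each result was recomputed under 15 alternatives, 9 of which left out 1 library. Of the values for single members, 233 kept their direction and their side of the threshold, 23 lost the call, 2 gained it and 12 changed sign. The sign changed for Pycard at day 3 under median-of-ratios scaling (−0.08), quantile normalization (−0.14) and without day 3 library 1 (−0.06), at day 7 against sham (−0.02, −0.06, 0 without sham library 3 and −0.05 without day 7 library 2), and in day 7 against day 3 (0.06, 0.08 and 0.14 without day 3 library 1). Without day 7 library 2, Casp4 (−0.01) and Il1b (−0.06) changed sign at day 7 against sham. Over the fits without 1 library, Pycard ranged from −0.06 to 0.34 at day 3, from −0.05 to 0.20 at day 7 and from −0.26 to 0.14 between the time points, and Casp4 and Il1b at day 7 from −0.01 to 0.33 and from −0.06 to 0.45. With no filter, 2 members were called in day 7 against day 3 and 7 genes of the wider pathway at day 7 against sham, where fewer calls come with more genes tested. Leaving out 1 library gave 2 to 4 called members at day 3 and 2 to 4 in day 7 against day 3, and 0 to 0 at day 7 against sham. For the wider pathway it gave 41 to 46, 28 to 41 and 5 to 16, and over all genes 7106 to 8221, 6267 to 7901 and 2470 to 4719. The counts over all genes that moved by over 1.5 times were those at day 7 against sham, 2470 without sham library 2 and 2696, 2699 and 2652 without day 7 libraries 1, 2 and 3. The Il1rn to Il1b difference changed sign with a pseudocount of 0.1 at day 3 (1.15) and in day 7 against day 3 (−0.16), and with none, an alternative added after the data were seen (2.49 and −0.47). Leaving out 1 library gave −0.26 to 0.33 at day 3, −0.03 to 0.37 at day 7 and −0.11 to 0.40 in day 7 against day 3. With group means removed, libraries of the same replicate number in different groups correlated at −0.05 to 0.24, and those of different numbers at −0.28 to 0.11. Whether libraries of the same number share an effect was not tested. With the replicate numbers as a block 4, 0 and 5 members were called, the fifth being Il18 (limma adjusted p 0.0308). The block gave 46, 12 and 36 calls in the wider pathway. Levels under 1 FPKM limit Casp1, Nlrp3 and Aim2. Where not stated, the cause of a change was not tested.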
